A study of Mus musculus and Homo sapiens with 59 samples.

Results

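The 9 genes described here encode kinases of the protein kinase C (PKC) and protein kinase D (PKD) families: Prkca, Prkcd, Prkce, Prkch, Prkci, Prkcz, Prkd1, Prkd2 and Prkd3. They were chosen by symbol, and all 9 were listed among the 19407 genes of the mouse table and, in upper case, among the 22192 genes of the human table. PKC enzymes are switched on at membranes. The conventional isoform Prkca needs calcium and diacylglycerol, Prkcd, Prkce and Prkch answer to diacylglycerol without calcium, and the atypical isoforms Prkci and Prkcz answer to neither and work in cell polarity complexes. PKD enzymes bind diacylglycerol, are phosphorylated by PKC, and act at the Golgi and on class IIa histone deacetylases. Diacylglycerol is made at the plasma membrane by phospholipase C, an enzyme that calcium entering the cell can stimulate.

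The data are 59 RNA libraries in 30 groups of cultured cells, in which the plasma membrane had been opened by a pore-forming protein or a detergent, or which were left untreated as their counterparts. Both mouse lines, the fibroblast line NIH3T3 (35 libraries) and the lung carcinoma line LLC (16 libraries), were parental or carried one of 2 constructs. The first, hMLKL1–181-2Fv, joins an amino-terminal part of human MLKL to a dimerizing domain, and the second, mGSDMD1-276-HBD, joins an amino-terminal part of mouse GSDMD to a hormone-binding domain. AP20187, a dimerizer, was given at 100 nM for 1 h to NIH3T3 and LLC cells with the MLKL construct and to parental NIH3T3 cells. 4OHT was given at 50 nM for 2.5 h to NIH3T3 and LLC cells with the GSDMD construct and to parental LLC cells. Parental NIH3T3 and LLC cells were also permeabilized for 3 h with 55 µg/mL of digitonin, a cholesterol-binding detergent. The human lines, HT29 from a colorectal and BxPC3 from a pancreatic carcinoma (4 libraries each), received 40 µg/mL of it over 2 h. NIH3T3 MLKL cells were also given AP20187 in calcium-free DMEM in place of complete DMEM, after an siRNA named siPKC or a control siRNA named siCTR, and with p65 knocked out (p65ko) or not (noko). All cells of these siRNA and knockout arms carried the MLKL construct, and their untreated counterparts did too. All untreated cells carry the treatment label NT and are called NT here, except those of the mouse digitonin experiments, which are called noDig after their titles (those of LLC MLKL are titled noBB). In LLC MLKL cells with AP20187 both libraries carry the same replicate number, and the one called replicate 1 here also has the construct written differently in its title. The labels do not name the PKC gene that siPKC targets, and do not say whether a modified line is a clone or a pool, or whether replicates were separate cultures. P-values therefore measure only the spread between these libraries, which may be technical. Every group had 2 libraries except siPKC with AP20187, which had 1 and for which the spread of the other groups was assumed.

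Levels are TPM, a measure of transcript abundance scaled by transcript length and library. TPM keep no record of sequencing depth, so counting error is unknown. The Pearson r between replicates over genes was 0.985 to 0.994 in the 29 groups with 2 libraries. NIH3T3 held 8 of 8 fibroblast markers and 1 of 6 epithelial ones at a mean of 1 TPM or more. LLC held 3 of 6 epithelial markers, with Epcam, Cdh1 and Krt7 below 1 TPM, and 4 of 8 fibroblast markers, and the lists summed to 291 to 543 TPM and 2751 to 4855 TPM in its libraries. HT29 and BxPC3 each held 6 of 6 epithelial markers, and HT29 held 2 of 4 intestinal ones, with CDX1 and CDX2 below 1 TPM. Of the macrophage list 3 of 5 genes were at 1 TPM or more in NIH3T3, where the list summed to 15.02 to 97.2 TPM, and 2 of 5 in each other line, with Ptprc and Adgre1 below 1 TPM in all 4. Rela, which encodes p65, stood at 13.6 and 14.1 TPM in untreated p65ko cells, against 49.7 and 49.2 TPM in untreated noko cells. In 8 of the 15 comparisons of treated with untreated cells the median change of all tested genes lay between −0.37 and −0.14 on the log2 scale, and there the members' changes are also given relative to it or with each library centred on its median. It was −0.28 and 0.23 for the differences in response between LLC GSDMD and parental cells and between HT29 and BxPC3. The shares of all genes called below are those without centring or quantile normalization. Both scalings move such shares too, so the members' splits with them have no share beside them. The noDig libraries of NIH3T3 differed from its parental NT libraries: their 50 most abundant genes took 28.4% and 28.2% of all TPM, against 25.2% and 25.7%. The members' digitonin results and the pathway counts of the digitonin comparisons are therefore given with NT libraries as well. Other NIH3T3 libraries came near the noDig share. It was 28.0% in untreated siCTR replicate 2 (24.6% in replicate 1), 27.2% to 27.6% in calcium-free medium and 27.2% in GSDMD cells with 4OHT. The part of this in the siPKC, calcium-free and GSDMD comparisons was not tested.

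The members are related kinases, and a read from a stretch that 2 of them share could be assigned to either. Among the 36 pairs of mouse members the longest exact run shared by their coding sequences had 10 to 33 bases, and in 7 pairs it had 19 bases or more. The sequences below show the longest run that Prkca, the member that changed most after siPKC, shares with another member, and the longest run of any pair. Capitals mark the shared run and lower case the 8 coding bases on either side, 5′ to 3′ on the coding strand, from GENCODE vM21 transcripts of GRCm38. Prkca lies on the minus strand at chr11:107933387-108343928 and Prkce on the plus strand at chr17:86167785-86657919, and they share 21 bases:
Prkca: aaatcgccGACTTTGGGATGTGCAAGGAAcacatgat
Prkce: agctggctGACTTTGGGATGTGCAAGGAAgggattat
Prkd1 lies on the minus strand at chr12:50341231-50649098 and Prkd3 on the minus strand at chr17:78949405-79020816, and they share 33 bases:
Prkd1: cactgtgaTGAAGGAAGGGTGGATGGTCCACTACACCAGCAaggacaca
Prkd3: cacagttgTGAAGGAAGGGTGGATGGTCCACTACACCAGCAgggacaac
The coding sequences hold 1776 to 2754 bases, so the shared runs are short against them, and how reads from such runs were divided is not given in the sources used here.

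At rest Prkci, the atypical isoform that works with the Par polarity proteins, had the highest level of the 9 genes in all 4 lines. It stood at 50.7 and 46.1 TPM in parental NT libraries of NIH3T3 and at 55.4 and 58.9 TPM in those of LLC. PRKCI stood at 53.3 and 53.4 TPM in untreated HT29 and at 29.2 and 29.2 TPM in untreated BxPC3 libraries. In no line did these values overlap those of the next gene. TPM is scaled by transcript length, so genes can be ordered by level within a line. The mouse and human tables were normalized separately, and no level was tested across them. The 9 genes summed to 129 TPM in NIH3T3, 157 TPM in LLC, 166 TPM in HT29 and 124 TPM in BxPC3.

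In NIH3T3 the order after Prkci, by mean level, was Prkca (29.9 TPM), Prkcd (20.6 TPM), Prkd1 (19.6 TPM), Prkce (4.60 TPM), Prkd3 (3.98 TPM), Prkd2 (1.97 TPM), Prkcz (0.316 TPM) and Prkch (0.0552 TPM). In LLC it was Prkca (33.9 TPM), Prkd3 (32.6 TPM), Prkcd (27.7 TPM), Prkd2 (3.04 TPM), Prkce (2.32 TPM), Prkcz (0.487 TPM), Prkd1 (0.0463 TPM) and Prkch (0.0353 TPM). The mouse lines thus shared Prkci, Prkca and Prkcd as abundant PKC genes, and the abundant PKD gene was Prkd1 in NIH3T3 and Prkd3 in LLC. The neighbours whose libraries overlapped were Prkca with Prkd3 and Prkd1 with Prkch, both in LLC.

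In the human lines PRKD2, PRKCZ and PRKCH ranked higher in the order, and PRKCA lower, than in the mouse lines. In HT29 PRKCI was followed by PRKD2 (30.2 TPM), PRKCZ (23.8 TPM), PRKCD (22.6 TPM), PRKD3 (18.2 TPM), PRKCH (8.53 TPM), PRKCA (6.86 TPM) and PRKCE (2.86 TPM), and PRKD1 was listed at 0 in both libraries. In BxPC3 it was followed by PRKD2 (23.6 TPM), PRKCD (21.8 TPM), PRKCZ (16.9 TPM), PRKCH (16.6 TPM), PRKD3 (6.80 TPM), PRKCE (5.14 TPM), PRKCA (4.35 TPM) and PRKD1 (0.0272 TPM). PRKCZ overlapped PRKCD in HT29 and PRKCH in BxPC3, and the other neighbours were separate.

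**Figure D1:**
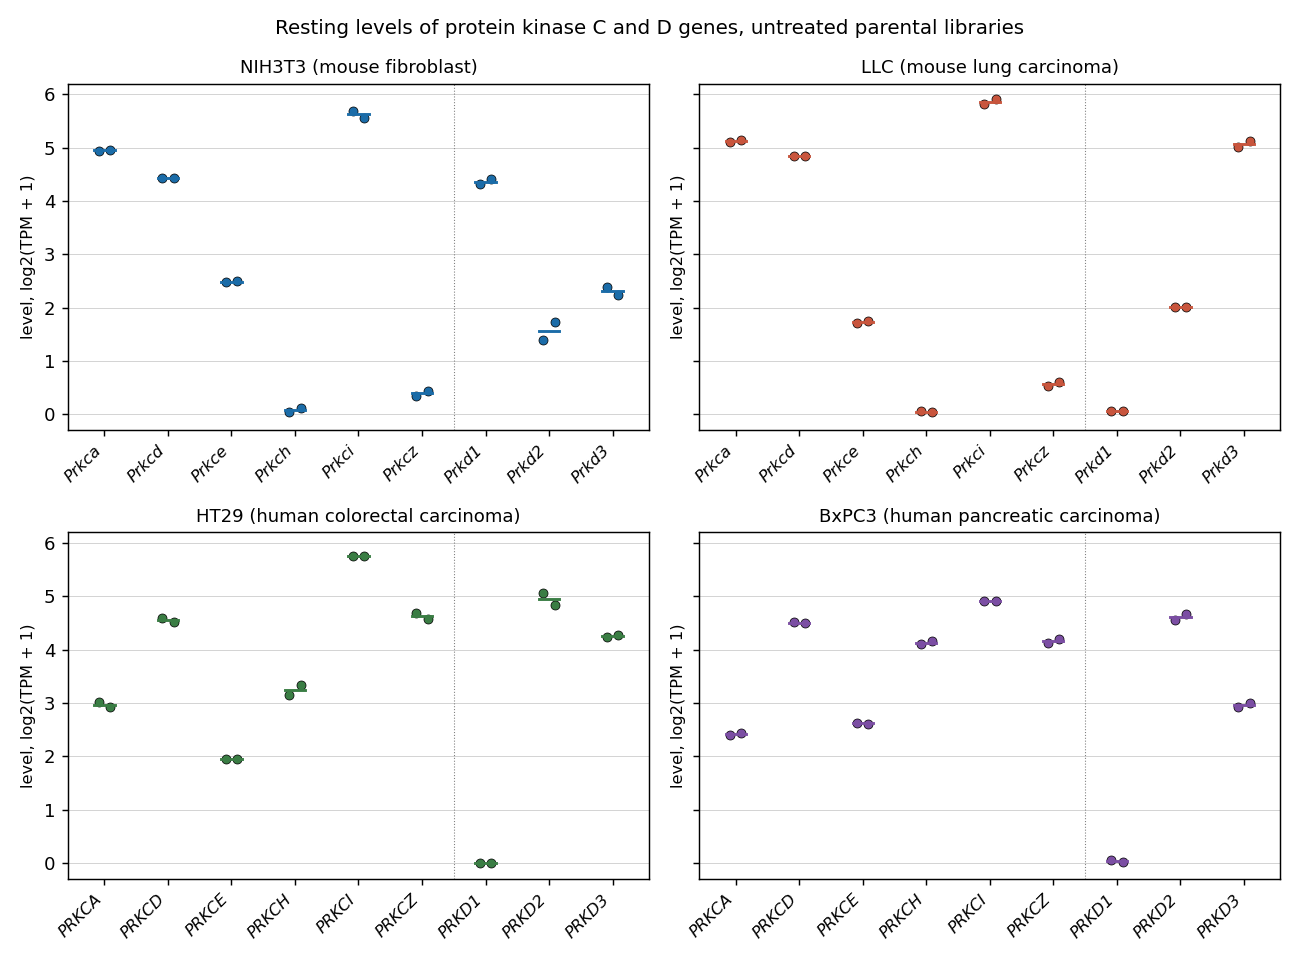
Levels of the 9 genes as log2(TPM + 1) in untreated parental libraries of the 4 lines; points are libraries (2 per line), bars their means, and the dotted line parts PKC from PKD genes. Prkci is the highest in each line, and Prkd1 is near 0 in LLC, HT29 and BxPC3 but averages 19.6 TPM in NIH3T3.

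The mouse lines differed most in their PKD genes. Prkd1, which works at the Golgi and on histone deacetylases, stood at 18.9 and 20.3 TPM in NIH3T3 NT libraries, against 0.0525 and 0.0400 TPM in LLC NT libraries. Prkd3 stood at 4.24 and 3.73 TPM in NIH3T3, against 31.5 and 33.7 TPM in LLC. Neither gene's libraries overlapped between the lines, and the direction was opposite. Differences were tested with limma on log2(TPM + 1), with Benjamini-Hochberg adjustment over all genes tested in a comparison and a threshold of 0.05. Over the 8 untreated parental libraries, NT and noDig, the difference was −3.08 for Prkd3 (SE 0.064, adjusted p = 1.08e-08). Prkd1 met the filter of 1 TPM only through the NIH3T3 libraries in which it is high, so its difference of 4.06 is given as a description, with no test. Over all untreated libraries of a line Prkd1 lay between 12.8 and 20.9 TPM in NIH3T3 and between 0.0173 and 0.0990 TPM in LLC, and Prkd3 between 1.56 and 4.24 TPM in NIH3T3 and between 27.2 and 40.6 TPM in LLC.

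Of the 6 members at 1 TPM or more in both lines, 1 was higher and 4 lower in NIH3T3 than in LLC, with 81.7% of all genes past the threshold (36.2% higher and 45.4% lower), so most genes differed between these lines. The share of all genes includes those that, like Prkd1, could meet the filter through 1 line alone, so the gene sets are unlike. Prkci (−0.79), Prkcd (−0.61) and Prkca (−0.49) were lower in NIH3T3 and Prkce was higher (0.21). With NT libraries alone, an alternative chosen after seeing the data, these differences were −0.24, −0.41, −0.17 and 0.75. With noDig libraries alone they were −1.35, −0.80, −0.80 and −0.33, so the sign for Prkce turned. Prkd1 stood at 4.30 and 3.82, and Prkd3 at −2.75 and −3.42, in the NT and noDig sets. Prkd2 was not past the threshold (−0.26, 95% interval −0.47 to −0.054, adjusted p = 0.0526). It passed with NT libraries alone, without NIH3T3 NT replicate 2 or noDig replicate 2, and with a replicate block (adjusted p = 0.0439). With quantile normalization Prkce, whose libraries overlapped between the lines, was lost and Prkd2 was gained, which left 5 lower calls, with Prkd1 not counted. Prkcz and Prkch were not tested, since a gene needed 1 TPM in at least 2 libraries of a comparison.

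The bases upstream of Prkd1 and Prkd3 are shown because these genes differed most between the mouse lines, and those of Prkci because it was the highest in each line and passed most often in the treated cells. Each stretch holds the 250 bases before a RefSeq transcript start (GRCm38.p6), 5′ to 3′ on the gene's strand, with the GC box, GGGCGG on either strand, in capitals. RefSeq promoters matched 7 of the 9 genes, with 12 windows, and Prkce and Prkch had no entry. Where a gene had several windows, the one nearest the start of the gene is shown.
Prkd1, minus strand, chr12:50649250-50649499: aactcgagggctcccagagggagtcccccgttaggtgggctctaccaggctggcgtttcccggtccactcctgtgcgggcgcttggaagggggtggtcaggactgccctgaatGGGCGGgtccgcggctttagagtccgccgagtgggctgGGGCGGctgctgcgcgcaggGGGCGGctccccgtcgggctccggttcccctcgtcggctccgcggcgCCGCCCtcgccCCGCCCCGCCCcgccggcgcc
Prkd3, minus strand, chr17:79020817-79021066: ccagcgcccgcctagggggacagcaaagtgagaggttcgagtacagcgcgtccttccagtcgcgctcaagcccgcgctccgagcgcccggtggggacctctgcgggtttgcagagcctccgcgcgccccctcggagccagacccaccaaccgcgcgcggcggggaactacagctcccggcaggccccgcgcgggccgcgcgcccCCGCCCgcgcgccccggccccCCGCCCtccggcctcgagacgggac
Prkci, plus strand, chr3:30995521-30995770: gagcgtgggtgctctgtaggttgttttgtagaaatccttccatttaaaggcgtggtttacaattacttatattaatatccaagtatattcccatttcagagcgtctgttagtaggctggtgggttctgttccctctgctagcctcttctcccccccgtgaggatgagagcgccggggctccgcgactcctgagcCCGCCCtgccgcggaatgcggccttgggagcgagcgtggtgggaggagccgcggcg
The GC box occurred 6 times upstream of Prkd1, where the last 2 copies overlap by 1 base, 2 times upstream of Prkd3 and 1 time upstream of Prkci, and it was in 32.7% of all 32851 mouse promoters of this length. None of the 3 held TGANTCA (in 6.75% of all promoters), TGACGTCA (1.55%), CACGTG (6.02%) or TATAAA (12.4%) on either strand. These matches describe letters and not binding. The GC content was 75.6% for Prkd1, 77.6% for Prkd3 and 56.4% for Prkci. Another Prkd3 window, chr17:79008506-79008755, held no GC box and had a GC content of 40.8%.

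Between the human lines 5 members were higher and 2 lower in HT29 than in BxPC3, of 8 tested, with 80.2% of all genes past the threshold (43.6% higher and 36.6% lower). PRKD3 stood at 17.9 and 18.4 TPM in HT29, against 6.60 and 7.005 TPM in BxPC3 (1.30, SE 0.075, adjusted p = 3.77e-06, limma). PRKCH, a diacylglycerol-dependent isoform, stood at 7.93 and 9.14 TPM in HT29, against 16.1 and 17.0 TPM in BxPC3 (−0.88). The libraries of the lines did not overlap for either gene. PRKCI (0.85), PRKCA (0.55), PRKCZ (0.47) and PRKD2 (0.34) were also higher in HT29, and PRKCE was lower (−0.67). PRKCD was not past the threshold (0.050, 95% interval −0.039 to 0.14).

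After siPKC, Prkca was far lower than after siCTR, while Prkcd was higher and Prkci lower. In untreated NIH3T3 MLKL cells Prkca stood at 7.46 and 8.05 TPM after siPKC, against 31.0 and 32.7 TPM after siCTR. With AP20187 it stood at 6.72 TPM in the single siPKC library, against 33.4 and 31.1 TPM after siCTR. All 3 siPKC libraries lay below all 4 siCTR libraries. The difference was −1.91 in untreated cells (SE 0.038, 95% interval −1.98 to −1.83, adjusted p = 2.57e-19) and −2.11 with AP20187 (SE 0.047, adjusted p = 9.95e-19), by limma. In bulk RNA, fewer cells holding a transcript and less of it per cell cannot be told apart.

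Of 7 members tested in untreated cells 2 were higher and 2 lower after siPKC, with 45.6% of all genes past the threshold (23.9% higher and 21.7% lower). Prkcd, a diacylglycerol-dependent isoform known for roles in apoptosis, stood at 39.6 and 38.6 TPM after siPKC, against 24.0 and 27.4 TPM after siCTR (0.59, SE 0.063, adjusted p = 1.34e-07, limma). These siPKC libraries were the highest of the untreated NIH3T3 groups, whose means started at 18.2 TPM in GSDMD cells. Prkci stood at 33.4 and 35.8 TPM after siPKC, against 45.1 and 47.1 TPM after siCTR (−0.40, SE 0.049, adjusted p = 7.26e-07). The groups did not overlap for either gene. Prkce stood at 4.74 and 5.11 TPM after siPKC, against 4.05 and 3.90 TPM after siCTR (0.25, adjusted p = 0.00956), and this call was lost with the libraries of the comparison alone (adjusted p = 0.114) and without siCTR replicate 2 or siPKC replicate 2 (adjusted p = 0.0590 and 0.0857).

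The PKD genes were not past the threshold after siPKC in untreated cells. The difference was 0.099 for Prkd1 (95% interval −0.0020 to 0.20), 0.011 for Prkd2 (95% interval −0.26 to 0.28) and 0.18 for Prkd3 (95% interval −0.0069 to 0.36). Prkd1, the PKD gene most abundant in these cells, stood at 13.9 and 14.3 TPM after siPKC, against 12.8 and 13.4 TPM after siCTR.

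With AP20187 the calls were again 2 higher and 2 lower, of the same 4 genes, against 46.4% of all genes (27.4% higher and 19.1% lower). Prkcd stood at 40.2 TPM after siPKC, against 26.8 and 28.5 TPM after siCTR (0.53, SE 0.077, adjusted p = 9.46e-06, limma). Prkci stood at 33.0 TPM after siPKC, against 37.6 and 36.0 TPM after siCTR (−0.15, adjusted p = 0.0416), and Prkce at 5.25 TPM after siPKC, against 4.13 and 4.26 TPM after siCTR (0.27, adjusted p = 0.0233). The single siPKC library lay outside the siCTR values for all 3 genes, but the calls of Prkci and Prkce were lost without siCTR replicate 1 and with the libraries of the comparison alone, which left 2 members. With median centring or quantile normalization Prkce was lost and the split became 1 higher and 2 lower.

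Whether the response to AP20187 differed between siPKC and siCTR cells was tested as an interaction, in which 1 member was higher and 1 lower, against 8.29% of all genes (4.96% higher and 3.33% lower). The difference was −0.20 for Prkca (SE 0.060, adjusted p = 0.0453) and 0.25 for Prkci (SE 0.077, adjusted p = 0.0471), by limma. Whichever of the 6 libraries other than siPKC with AP20187 was left out, 1 of the 2 genes kept its call. With a replicate block both were lost (adjusted p = 0.0574 for Prkca and 0.0604 for Prkci), as they were with the libraries of the comparison alone. The split was 0 higher and 1 lower with median centring and 1 higher and 0 lower with quantile normalization.

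**Figure D2:**
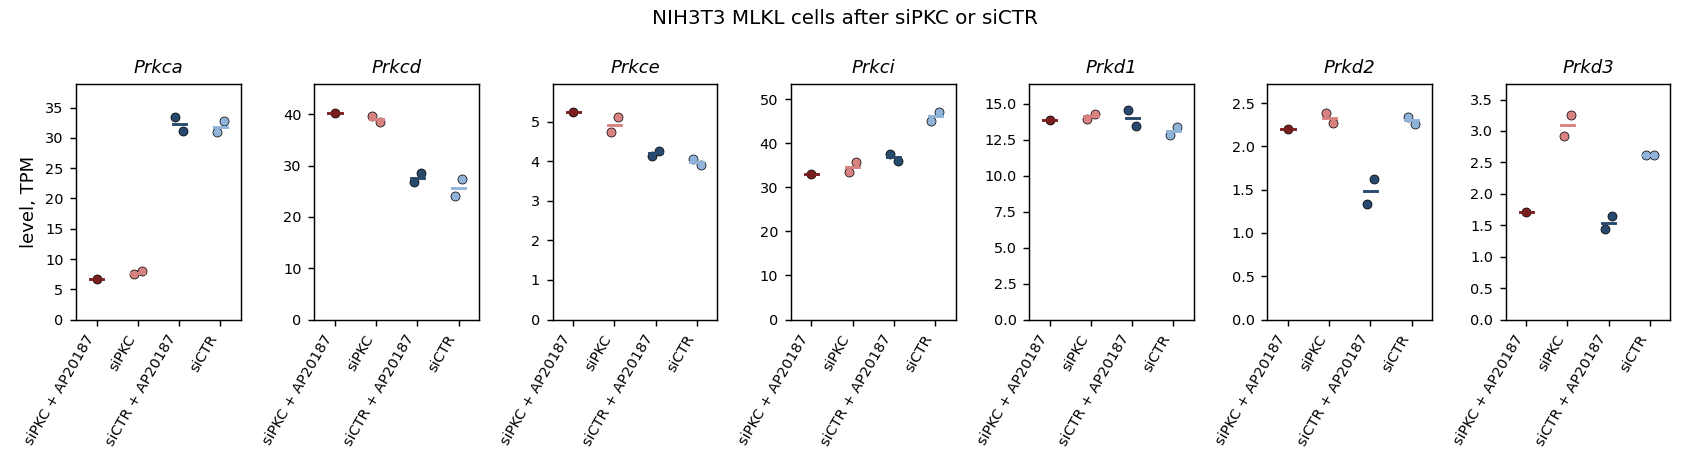
TPM of the 7 tested members in NIH3T3 MLKL cells after siPKC with AP20187 (1 library), siPKC, siCTR with AP20187 and siCTR (2 libraries each); points are libraries, bars their means, and each axis starts at 0. Prkca is at 6.72 to 8.05 TPM in the siPKC libraries and at 31.0 to 33.4 TPM in the siCTR libraries, and Prkcd is higher after siPKC.

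Across the comparisons in which the membrane was opened, 11 in mouse and 2 in human cells, the most frequent call was a lower Prkci in mouse cells, in 7 comparisons, with a higher one in 1. Of these 7 calls 4 remained with median centring, the exceptions being GSDMD in NIH3T3 and AP20187 in noko and p65ko cells. Prkd3 was lower in 4 mouse comparisons and higher in 1, and Prkca was lower in 3 and higher in 2. Prkcd was higher in 3 mouse comparisons and lower in none of them. Prkd2 was lower in 2, Prkce was higher in 1 and lower in 1, and Prkd1 was higher in 1 of the 8 in which it was tested. In these counts digitonin in mouse cells is set against noDig libraries, which gave the higher Prkci call. With median centring Prkca kept no lower call, and it was called higher with AP20187 after siCTR and in noko cells and in NIH3T3 GSDMD cells. Prkd3 then lost its lower calls in noko and NIH3T3 GSDMD cells. Prkcd was called higher with centring after siCTR and in p65ko cells as well. Over these 11 mouse comparisons 2.08% to 58.6% of all genes were lower and 2.27% to 39.3% were higher. No count over comparisons was made for all genes, so neither these counts nor those of pathway genes below set a gene apart. Changes of members past the threshold in mouse cells lay between −0.67 and 0.93. Prkcz, the second atypical isoform, ranged from 0.0675 to 0.928 TPM over mouse libraries and Prkch reached at most 0.161 TPM, and neither was tested there.

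In the 2 parental controls the agents alone moved no member past the threshold. The series holds no parental NIH3T3 library with 4OHT and no parental LLC library with AP20187. With AP20187 in parental NIH3T3 cells 0 of 7 members passed by limma, against 0.304% of all genes (0.0174% higher and 0.287% lower), and 1 had an unadjusted p under 0.05, Prkce. Prkce stood at 4.01 and 3.91 TPM with AP20187, against 4.56 and 4.64 TPM without it (−0.18, adjusted p = 0.710). With 4OHT in parental LLC cells 0 of 6 passed, against 0.864% of all genes (0.819% higher and 0.045% lower), and 1 had an unadjusted p under 0.05, Prkca (0.13, adjusted p = 0.288). Prkci, which moved most often where the membrane was opened, differed by 0.0020 (95% interval −0.093 to 0.097) and 0.018 (95% interval −0.060 to 0.097) in these 2 controls.

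**Figure D3:**
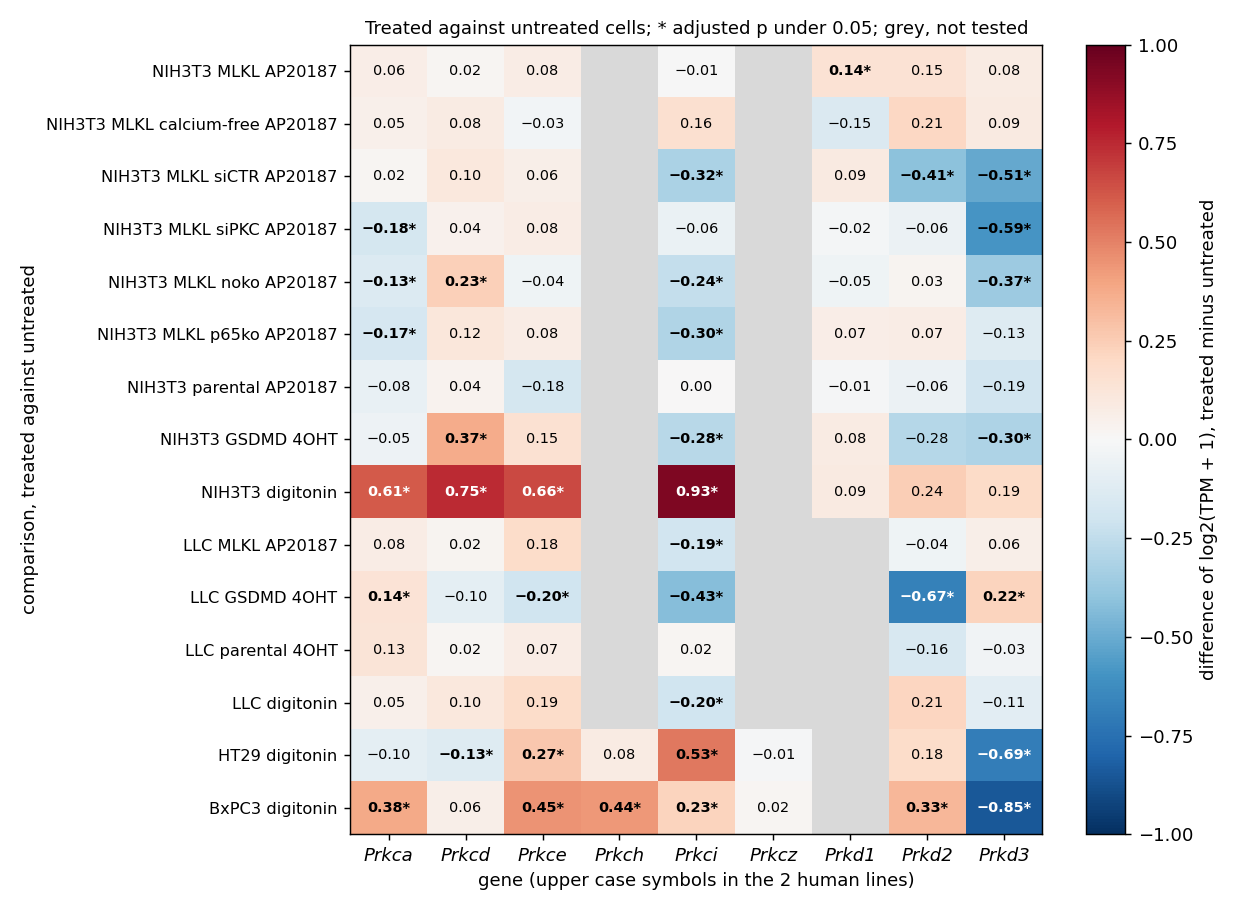
Difference of log2(TPM + 1) between treated and untreated cells for each member (columns) and comparison (rows), red where treated cells are higher and blue where they are lower; asterisks mark an adjusted p under 0.05 and grey cells were not tested. The Prkci column has asterisks with lower values in 7 mouse rows, and the PRKD3 values are the lowest in both human rows.

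After MLKL dimerization in complete medium no PKC gene of NIH3T3 cells passed the threshold, and 1 PKD gene did. Of 7 members that was Prkd1, against 32.3% of all genes (15.8% higher and 16.5% lower). Prkd1 stood at 18.9 and 20.3 TPM with AP20187, against 17.4 and 17.9 TPM without it (0.14, SE 0.051, adjusted p = 0.0359, limma), with no overlap. The call was lost with median centring (adjusted p = 0.0561), with the libraries of the comparison alone (0.154), without the filter on low values, and without NT replicate 1, NT replicate 2 or AP20187 replicate 2 (adjusted p = 0.183, 0.0716 and 0.264). Prkci stood at 42.8 and 42.5 TPM with AP20187, against 44.2 and 41.6 TPM without it (−0.0077, 95% interval −0.10 to 0.088), and Prkca at 28.9 and 29.0 TPM with AP20187, against 27.4 and 27.9 TPM without it (0.065, 95% interval −0.0091 to 0.14). No member's response differed from that of parental cells by limma (0 of 7, against 20.5% of all genes (12.4% higher and 8.1% lower)), and 3 had an unadjusted p under 0.05.

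In calcium-free medium 0 of 7 members passed after AP20187 by limma, against 5.69% of all genes (2.27% higher and 3.42% lower), and 2 had an unadjusted p under 0.05, Prkci and Prkd1. Prkci stood at 46.3 and 45.3 TPM with AP20187, against 41.4 and 40.3 TPM without it (0.16, adjusted p = 0.0559), and Prkd1 at 18.5 and 17.7 TPM with AP20187, against 20.0 and 20.2 TPM without it (−0.15, adjusted p = 0.104). The libraries did not overlap for either gene, and both passed with quantile normalization, for a split of 1 higher and 1 lower. The response of Prkd1 differed between the media by −0.29 (SE 0.072, adjusted p = 0.00595, limma), the 1 member of 7 to do so, against 21.9% of all genes (10.8% higher and 11.1% lower). With quantile normalization Prkci passed as well, for a split of 1 higher and 1 lower.

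Calcium withdrawal alone was compared in untreated MLKL cells, where 1 member was higher and 2 lower in calcium-free medium, against 36.3% of all genes (8.55% higher and 27.7% lower). Prkd1 stood at 20.0 and 20.2 TPM in calcium-free medium, against 17.4 and 17.9 TPM in complete medium (0.18, SE 0.051, adjusted p = 0.00890, limma). Prkca, the isoform that needs calcium for its activity, stood at 25.2 and 24.5 TPM in calcium-free medium, against 27.4 and 27.9 TPM in complete medium (−0.15), and Prkce at 3.23 and 3.56 TPM in calcium-free medium, against 4.31 and 4.34 TPM in complete medium (−0.28). The libraries did not overlap for these 3 genes. With median centring Prkca and Prkce were lost and Prkd3 was gained, for a split of 2 higher and 0 lower, and quantile normalization gave 1 higher and 0 lower. Prkce was also lost without calcium-free replicate 1 (adjusted p = 0.0762) and with the libraries of the comparison alone, and Prkd1 was lost without complete-medium replicate 1 or calcium-free replicate 2 (adjusted p = 0.0726 and 0.0527).

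In the siRNA and knockout arms AP20187 changed more genes, and the calls of members there were mostly lower values of Prkci, Prkd3 and Prkca. After siCTR 0 members were higher and 3 lower, against 65.6% of all genes (13.7% higher and 51.8% lower). Prkci stood at 37.6 and 36.0 TPM with AP20187, against 45.1 and 47.1 TPM without it (−0.32), Prkd3 at 1.43 and 1.64 TPM with AP20187, against 2.61 and 2.61 TPM without it (−0.51) and Prkd2 at 1.34 and 1.62 TPM with AP20187, against 2.34 and 2.26 TPM without it (−0.41). Treated libraries lay below untreated ones for all 3 genes, and the Prkd2 call was lost without NT replicate 1 or AP20187 replicate 1. After siPKC 0 were higher and 2 lower, against 48.1% of all genes (10.5% higher and 37.5% lower): Prkd3 stood at 1.71 TPM in the library with AP20187, against 2.92 and 3.26 TPM without it (−0.59, adjusted p = 0.000248, limma), and Prkca at 6.72 TPM with AP20187, against 7.46 and 8.05 TPM without it (−0.18), a call lost with the libraries of the comparison alone (adjusted p = 0.282).

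In noko cells 1 member was higher and 3 lower with AP20187, against 66% of all genes (10.6% higher and 55.5% lower). Prkcd stood at 28.7 and 27.9 TPM with AP20187, against 22.4 and 25.5 TPM without it (0.23, adjusted p = 0.00263, limma), a call lost without NT replicate 1. Prkci stood at 37.6 and 37.6 TPM with AP20187, against 44.4 and 44.8 TPM without it (−0.24) and Prkd3 at 1.40 and 1.62 TPM with AP20187, against 2.21 and 2.24 TPM without it (−0.37), and Prkca was lower by less (−0.13). In p65ko cells 0 were higher and 2 lower, against 59.4% of all genes (8.99% higher and 50.4% lower): Prkci stood at 39.1 and 40.03 TPM with AP20187, against 49.1 and 48.7 TPM without it (−0.30) and Prkca at 22.4 and 22.9 TPM with AP20187, against 25.7 and 25.4 TPM without it (−0.17). Treated libraries lay below untreated ones for Prkci in both arms. No response differed between p65ko and noko cells by limma (0 of 7, against 4.1% of all genes (2.34% higher and 1.76% lower)), and 0 had an unadjusted p under 0.05.

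The median change of all genes in these 4 arms was −0.19 after siCTR, −0.14 after siPKC, −0.22 in noko and −0.19 in p65ko cells on the log2 scale, and several of the lower calls were of that size. Relative to it Prkci changed by −0.13 after siCTR, −0.024 in noko and −0.11 in p65ko cells, and with median centring it remained called after siCTR but not in noko or p65ko cells. Prkd3 changed relative to the median by −0.32 after siCTR and −0.45 after siPKC, where it remained called, and by −0.15 in noko cells, where it did not. With median centring Prkca turned to 0.10 in noko cells, where it was called higher, and to 0.040 in p65ko cells, where it was not called. The shares of all genes given for these arms are those without centring, which moves them too. The splits with centring were 4 higher and 2 lower after siCTR, 0 higher and 1 lower after siPKC, 4 higher and 0 lower in noko and 3 higher and 0 lower in p65ko cells, with Prkcd, Prkce and Prkd1 among the higher genes in the siCTR, noko and p65ko arms. Quantile normalization gave 1 higher and 1 lower after siPKC and 3 higher and 1 lower in p65ko cells.

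Loss of p65, a subunit of NF-kB, was compared in untreated MLKL cells, where 1 member was higher and 3 lower in p65ko than in noko cells, against 47% of all genes (31.8% higher and 15.2% lower). Prkd1 stood at 16.5 and 16.1 TPM in p65ko, against 19.2 and 20.9 TPM in noko cells (−0.28, SE 0.051, adjusted p = 0.000129, limma), and Prkca at 25.7 and 25.4 TPM in p65ko, against 29.9 and 30.2 TPM in noko cells (−0.23, SE 0.038, adjusted p = 5.25e-05). Prkd3 stood at 1.67 and 1.56 TPM in p65ko, against 2.21 and 2.24 TPM in noko cells (−0.30). The libraries did not overlap for these 3 genes, but Prkd3 lost its call without noko replicate 2 or p65ko replicate 2 (adjusted p = 0.0538 and 0.0781). Prkci was higher (0.13), a call lost whichever library was left out and with median centring, which gave 0 higher and 3 lower, as did quantile normalization.

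After GSDMD activation Prkci was lower in both mouse lines, but in NIH3T3 not relative to the median of all genes. In NIH3T3 1 member was higher and 2 lower with 4OHT, against 78.6% of all genes (20% higher and 58.6% lower). Prkcd stood at 23.4 and 24.3 TPM with 4OHT, against 19.3 and 17.1 TPM without it (0.37, SE 0.063, adjusted p = 1.63e-05, limma). Prkci stood at 32.4 and 31.8 TPM with 4OHT, against 41.2 and 37.1 TPM without it (−0.28) and Prkd3 at 1.67 and 1.84 TPM with 4OHT, against 2.42 and 2.38 TPM without it (−0.30). Treated and untreated libraries did not overlap for these genes. The median of all genes fell by 0.29 here, and relative to it Prkcd changed by 0.67, Prkci by 0.018 and Prkd3 by −0.010. With median centring the split was 4 higher and 0 lower, with Prkca, Prkcd, Prkce and Prkd1 called, and Prkd3 was also lost with the libraries of the comparison alone (adjusted p = 0.0722). The shares of all genes above are those without centring.

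In LLC GSDMD cells 2 members were higher and 3 lower with 4OHT, against 82% of all genes (27.9% higher and 54% lower). Prkd2 stood at 1.24 and 0.939 TPM with 4OHT, against 2.46 and 2.20 TPM without it (−0.67, SE 0.10, adjusted p = 4.91e-05, limma). Prkci stood at 47.5 and 46.7 TPM with 4OHT, against 65.001 and 62.2 TPM without it (−0.43, SE 0.040, adjusted p = 7.74e-07), and Prkd3, the abundant PKD gene of this line, at 33.2 and 30.9 TPM with 4OHT, against 27.6 and 27.2 TPM without it (0.22, adjusted p = 0.00135). These 3 genes, with no overlap of libraries, kept their calls with median centring. Relative to the median of all genes, which fell by 0.25, the uncentred changes were −0.42, −0.18 and 0.47. Prkca (0.14) and Prkce (−0.20) lost their calls with the libraries of the comparison alone and without NT replicate 2, and Prkce also with centring, which gave 2 higher and 2 lower. Prkca was lost without 4OHT replicate 1 as well, and Prkce without NT replicate 1 or 4OHT replicate 2 and with a replicate block (adjusted p = 0.0540).

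The response to 4OHT of LLC GSDMD cells differed from that of parental LLC cells for 3 of 6 members, 1 higher and 2 lower, against 71.8% of all genes (22.4% higher and 49.4% lower). The difference was −0.44 for Prkci (adjusted p = 2.06e-05), −0.51 for Prkd2 (adjusted p = 0.00544) and 0.25 for Prkd3 (adjusted p = 0.00654), by limma. In parental LLC cells Prkci stood at 58.7 and 57.1 TPM with 4OHT, against 55.4 and 58.9 TPM without it, with overlap. With median centring Prkca was called too, and the split became 2 higher and 2 lower. With quantile normalization Prkd2 was lost (adjusted p = 0.234), for 1 higher and 1 lower. MLKL dimerization in LLC moved 1 of 6 members past the threshold, against 7.56% of all genes (5.48% higher and 2.08% lower): Prkci stood at 52.0 and 54.4 TPM with AP20187, against 61.5 and 60.01 TPM without it (−0.19, SE 0.040, adjusted p = 0.0136). That call was lost without NT replicate 1, NT replicate 2 or the AP20187 library numbered 1 here (adjusted p = 0.124, 0.0570 and 0.122).

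Digitonin in NIH3T3 gave the largest rises of members in mouse cells, and most of them rest on the noDig libraries. Against noDig 4 members were higher and 0 lower, against 73.5% of all genes (39.3% higher and 34.2% lower). Prkci stood at 43.0 and 43.2 TPM with digitonin, against 21.4 and 22.9 TPM in noDig cells (0.93, SE 0.049, adjusted p = 2.10e-13, limma). Prkca stood at 30.9 and 31.8 TPM with digitonin, against 20.6 and 19.7 TPM in noDig cells (0.61), and Prkce at 3.85 and 4.25 TPM with digitonin, against 2.26 and 2.13 TPM in noDig cells (0.66). The libraries did not overlap, but parental NT libraries held Prkci at 50.7 and 46.1 TPM, Prkca at 29.8 and 30.03 TPM and Prkce at 4.56 and 4.64 TPM. Set against NT, an alternative chosen after seeing the data, Prkci was lower with digitonin (−0.16, adjusted p = 0.00481, limma), and neither Prkca (0.066, adjusted p = 0.122) nor Prkce (−0.15, adjusted p = 0.0758) passed.

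Prkcd was higher with digitonin against either set of untreated cells. It stood at 34.0 and 34.0 TPM with digitonin, against 20.4 and 19.3 TPM in noDig cells, and at 20.6 and 20.5 TPM in parental NT libraries. The difference was 0.75 against noDig (SE 0.063, adjusted p = 7.39e-10) and 0.70 against NT (adjusted p = 2.24e-09), by limma. The PKD genes were not past the threshold against noDig, at 0.091 for Prkd1, 0.24 for Prkd2 and 0.19 for Prkd3. Without noDig replicate 2 all 3 of them passed as higher, which made 7 members. Against NT Prkd1 (−0.39) and Prkd3 (−0.48) were lower, with 22.1% of all genes higher and 55.1% lower. The part of the noDig libraries' composition in these values was not tested.

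**Figure D4:**
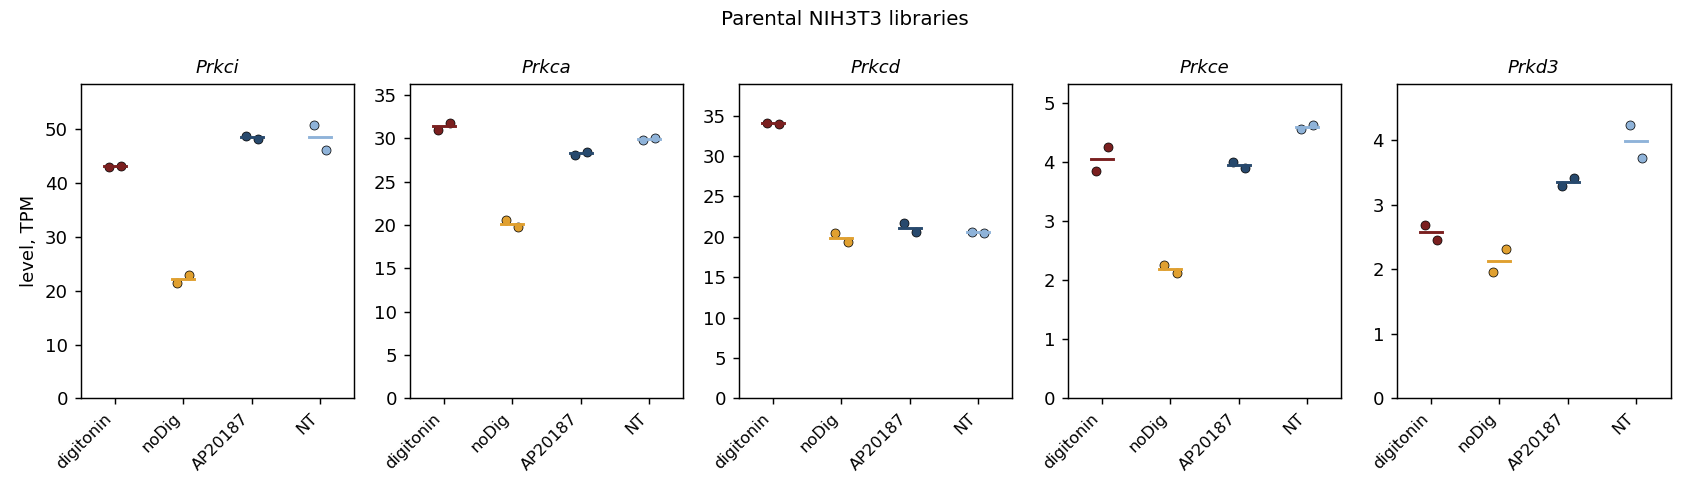
TPM of Prkci, Prkca, Prkcd, Prkce and Prkd3 in parental NIH3T3 libraries with digitonin, without it (noDig), with AP20187 and untreated (NT); points are libraries (2 per group), bars their means, and each axis starts at 0. Prkci is at 21.4 and 22.9 TPM in noDig and at 50.7 and 46.1 TPM in NT libraries, while Prkcd is higher with digitonin than in both.

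In LLC digitonin moved 1 of 6 members past the threshold, against 52.5% of all genes (20.3% higher and 32.2% lower). Prkci stood at 50.6 and 49.9 TPM with digitonin, against 58.9 and 57.2 TPM in noDig cells (−0.20, SE 0.040, adjusted p = 0.00122, limma), with no overlap. Prkcd stood at 37.5 and 38.9 TPM with digitonin, against 35.7 and 35.3 TPM in noDig cells (0.10, adjusted p = 0.106), and Prkd3 at 30.2 and 29.8 TPM with digitonin, against 33.7 and 31.1 TPM in noDig cells (−0.11, adjusted p = 0.0951). Prkd3 passed with median centring, which gave 0 higher and 2 lower, and without noDig replicate 2, and quantile normalization gave 1 higher and 2 lower. Set against parental NT libraries, an alternative chosen after seeing the data, 5 members passed, with 29.2% of all genes higher and 47.5% lower. Prkca (0.13), Prkcd (0.45) and Prkce (0.46) were higher, and Prkci (−0.18) and Prkd2 (−0.34) were lower.

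In both human lines PRKD3 fell and PRKCI and PRKCE rose with digitonin. PRKD3 stood at 11.5 and 10.3 TPM with digitonin, against 17.9 and 18.4 TPM without it in HT29 (−0.69, SE 0.076, adjusted p = 0.000237), and at 3.16 and 3.50 TPM, against 6.60 and 7.005 TPM in BxPC3 (−0.85, SE 0.076, adjusted p = 3.62e-05), by limma. PRKCI stood at 80.3 and 74.8 TPM with digitonin, against 53.3 and 53.4 TPM without it in HT29 (0.53, SE 0.050, adjusted p = 0.000123), and at 33.2 and 35.5 TPM, against 29.2 and 29.2 TPM in BxPC3 (0.23, adjusted p = 0.00431). Treated and untreated libraries did not overlap for either gene in either line. Relative to the median of all genes, which fell by 0.16 in HT29 and by 0.37 in BxPC3, PRKD3 changed by −0.53 and −0.48.

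In HT29 2 members were higher and 2 lower, against 60.6% of all genes (16.5% higher and 44% lower). PRKCE stood at 3.56 and 3.77 TPM with digitonin, against 2.88 and 2.85 TPM without it (0.27, adjusted p = 0.0117, limma), and PRKCD at 21.0 and 20.2 TPM with digitonin, against 23.1 and 22.0 TPM without it (−0.13, adjusted p = 0.0483). The libraries did not overlap, but PRKCD turned to 0.038 with median centring and lost its call with a replicate block (adjusted p = 0.0664) and whichever library was left out. PRKCE was lost without digitonin replicate 2, which left 2 members. With centring the split became 5 higher and 1 lower, and with quantile normalization 4 higher and 1 lower. The shares of all genes above are those without either scaling.

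In BxPC3 5 members were higher and 1 lower, against 80.6% of all genes (23.7% higher and 56.9% lower). PRKCH stood at 22.2 and 23.4 TPM with digitonin, against 16.1 and 17.0 TPM without it (0.44, SE 0.082, adjusted p = 0.00200, limma). PRKCE stood at 7.59 and 7.14 TPM with digitonin, against 5.19 and 5.09 TPM without it (0.45), PRKCA at 5.77 and 6.15 TPM with digitonin, against 4.27 and 4.42 TPM without it (0.38) and PRKD2 at 29.0 and 31.0 TPM with digitonin, against 22.7 and 24.5 TPM without it (0.33). Treated libraries lay above untreated ones for these 4 genes. With centring the split became 7 higher and 1 lower, for which the shares of all genes above, taken without centring, are no measure. PRKCZ, abundant in both human lines, changed by −0.012 in HT29 (95% interval −0.12 to 0.097) and 0.022 in BxPC3 (95% interval −0.086 to 0.13).

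The response to digitonin differed between HT29 and BxPC3 for 4 of 8 members, 1 higher and 3 lower, against 64.1% of all genes (43.5% higher and 20.6% lower). The difference was −0.48 for PRKCA (adjusted p = 0.00377), −0.36 for PRKCH (0.0321), −0.19 for PRKCD (0.0351) and 0.30 for PRKCI (0.00815), by limma. With median centring the split became 0 higher and 6 lower and PRKCI was no longer called (0.056). Without HT29 digitonin replicate 1, or any of the 4 BxPC3 libraries, only PRKCA and PRKCI passed. PRKCD was also lost without HT29 digitonin replicate 2 or NT replicate 1, and PRKCH without HT29 NT replicate 2. The PRKD3 response did not pass the test of a difference (0.16, 95% interval −0.046 to 0.36).

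**Figure D5:**
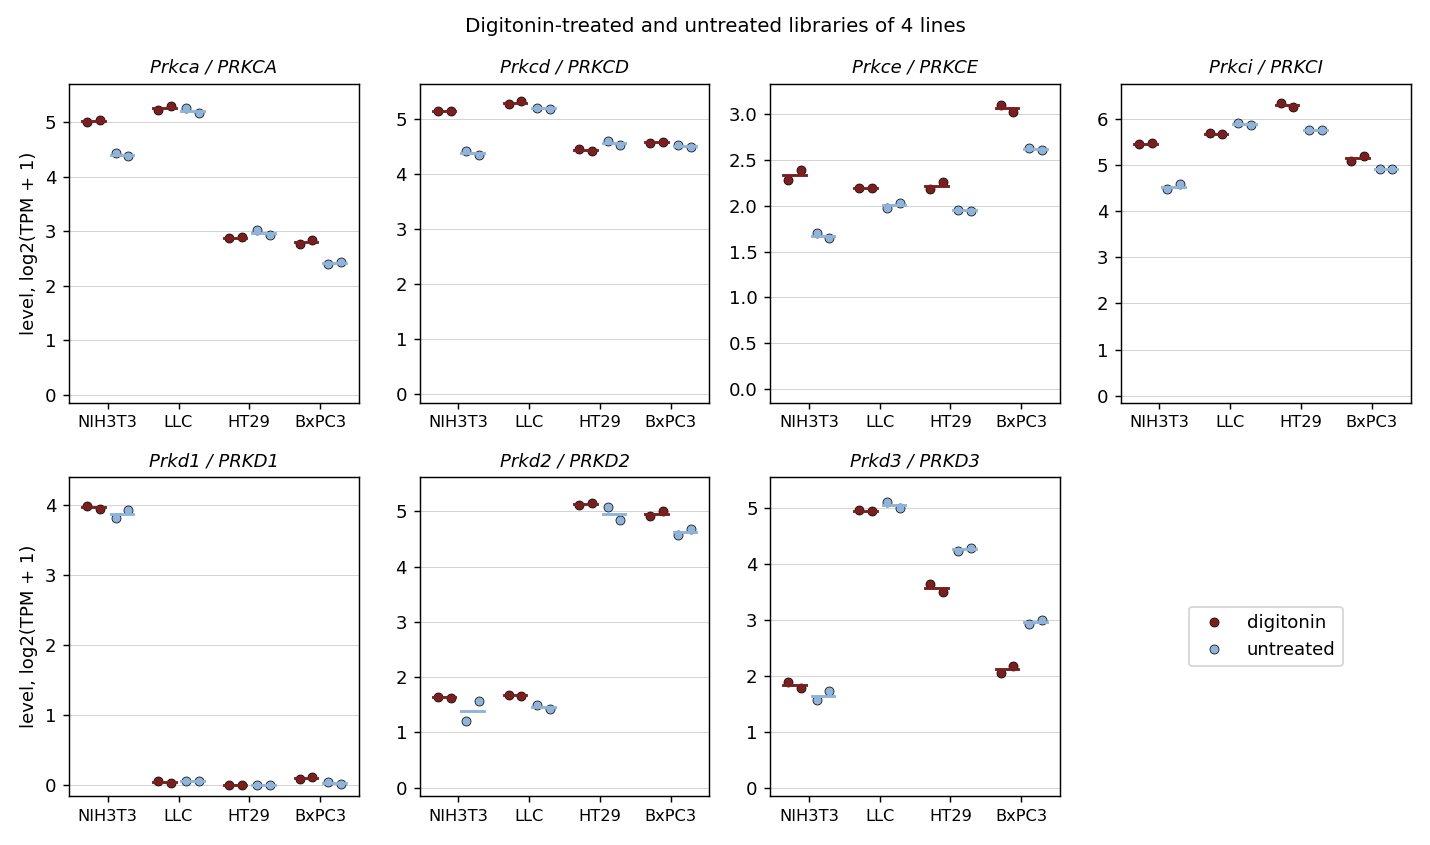
Levels as log2(TPM + 1) of 7 members in digitonin-treated (dark) and untreated (light) libraries of the 4 lines, with noDig libraries as untreated in NIH3T3 and LLC and NT libraries in HT29 and BxPC3; points are libraries, bars their means. PRKD3 is lower and PRKCI higher with digitonin in both human lines, and Prkd1 is near 0 outside NIH3T3.

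The wider pathway was described over a list of PKC and PKD regulators, partners and substrates, of which 46 to 53 were tested in each comparison of treated with untreated cells. AP20187 in NIH3T3 MLKL cells gave 12 higher and 3 lower of 50, with 32.3% of all genes past the threshold (15.8% higher and 16.5% lower). In calcium-free medium it gave 0 higher and 2 lower of 50, with 5.69% of all genes past the threshold (2.27% higher and 3.42% lower), and in parental cells 0 higher and 0 lower of 48, with 0.304% of all genes past the threshold (0.0174% higher and 0.287% lower). 4OHT in GSDMD cells gave 20 higher and 24 lower of 51, with 78.6% of all genes past the threshold (20% higher and 58.6% lower), in NIH3T3. In LLC it gave 17 higher and 23 lower of 48, with 82% of all genes past the threshold (27.9% higher and 54% lower). Digitonin against noDig gave 32 higher and 10 lower of 50, with 73.5% of all genes past the threshold (39.3% higher and 34.2% lower), in NIH3T3. In LLC it gave 18 higher and 7 lower of 49, with 52.5% of all genes past the threshold (20.3% higher and 32.2% lower). Set against parental NT libraries, an alternative chosen after seeing the data, digitonin gave 14 higher and 32 lower of 50, with 22.1% of all genes higher and 55.1% lower, in NIH3T3. In LLC it gave 27 higher and 14 lower of 50, with 29.2% of all genes higher and 47.5% lower. Digitonin in HT29 gave 12 higher and 19 lower of 47, with 60.6% of all genes past the threshold (16.5% higher and 44% lower). In BxPC3 it gave 17 higher and 20 lower of 53, with 80.6% of all genes past the threshold (23.7% higher and 56.9% lower). The median change over the list was −0.069 in BxPC3, against −0.37 over all genes, and 0.38 in NIH3T3 with digitonin against noDig, where all genes gave 0.015. Against NT it was −0.18, against −0.24 over all genes. Untreated siPKC cells had 24 higher and 10 lower of 50, with 45.6% of all genes past the threshold (23.9% higher and 21.7% lower). With median centring the counts of higher and lower genes were 11 and 5 for AP20187 in NIH3T3 MLKL cells, 0 and 4 in calcium-free medium, 28 and 15 and 19 and 16 for GSDMD in NIH3T3 and LLC, and 26 and 17, 17 and 9, 18 and 13 and 34 and 11 for digitonin in NIH3T3, LLC, HT29 and BxPC3. With quantile normalization the same 8 comparisons gave 12 and 7, 0 and 4, 25 and 18 and 22 and 15, and 28 and 16, 20 and 7, 17 and 17 and 28 and 13.

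Among partners of atypical PKC, Sqstm1, which encodes the p62 scaffold, was higher in 10 of the 11 mouse comparisons and in both human ones, and lower in calcium-free medium (−0.13). In NIH3T3 GSDMD cells it averaged 1658 ± 27.8 TPM with 4OHT and 213 ± 0.237 TPM without (SD, n = 2 each, difference 2.95). PARD6B, a Par complex member that binds PRKCI, averaged 31.3 ± 1.39 TPM with digitonin and 7.05 ± 0.130 TPM without in HT29 (2.00), and 16.8 ± 0.726 and 2.06 ± 0.0772 TPM in BxPC3 (2.54). In mouse cells Pard6b was higher in 5 comparisons and lower in 2, and the further partners moved either way. Pard6g was lower in 6, Llgl1 in 5 and Pard6a in 4 (7, 3 and 2 with median centring), each higher in 0. Pawr was higher in 4 and lower in 1, and Pard3 was higher in 1 and lower in 0. Bcl10, which carries PKC signals to NF-kB, was higher in 9 mouse comparisons and both human ones, lower in calcium-free medium (−0.21), and averaged 55.4 ± 0.711 TPM with AP20187 and 29.8 ± 0.709 TPM without in NIH3T3 MLKL cells (0.87). Of the genes listed with Bcl10, Map3k7 was lower in 5 mouse comparisons (3 with median centring) and higher in 1. Malt1 was higher in 5 and lower in 0, and Traf6 was higher in 2 and lower in 2. CARD10 and MAP3K7 were lower in both human lines, and MALT1 was higher in 1.

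Among genes of PKC maturation, Rictor, part of the complex that phosphorylates PKC, was higher in 9 mouse comparisons and both human ones, and Mapkap1, another subunit of it, was lower in 6 mouse comparisons and both human ones, but with median centring in 5 mouse comparisons and 0 human ones. Among substrates, Marcks, the classic PKC target, was lower in 8 of the 10 mouse comparisons in which it was tested, with 22.0 ± 0.322 TPM with 4OHT and 61.2 ± 1.20 TPM without in NIH3T3 GSDMD cells (−1.44). MARCKS was higher in HT29 and lower in BxPC3 with digitonin, and with either scaling higher in 1 human line and lower in 0. Against NT libraries digitonin gave another call for 3 of the 8 genes Sqstm1, Bcl10, Rictor, Mapkap1, Marcks, Hdac7, Dgkd and Dgkz. Marcks was higher in LLC (1.36), and in NIH3T3 Mapkap1 was lower (−0.71) and Dgkd was not past the threshold (0.091). Calls of the further partners changed too, as for Pawr, lower in NIH3T3 (−0.51), and Pard6g, higher in LLC (0.73). The PKD substrate gene Hdac7 was lower in 8 mouse comparisons and higher in 1 (6 and 0 with either scaling), and HDAC5 was higher in both human lines (1.24 in HT29 and 1.83 in BxPC3). Diacylglycerol kinases, which remove diacylglycerol, moved in both directions: Dgkd was higher in 9 mouse comparisons, and Dgkz was lower in 8 of them (7 with median centring) and in both human lines.

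Across the 18 NIH3T3 groups, the genes whose group means followed those of a member most closely were taken from 9379 genes, for the 3 members past the threshold most often. For Prkci they were Ankrd13c (Pearson r = 0.960), Snx27 (0.943) and Smek2 (0.939), for Prkd3 Tmco1 (0.901), Pros1 (0.864) and Akr1a1 (0.850), and for Prkca Wipf1 (0.880), Emc3 (0.875) and Sgpl1 (0.872). These values describe groups that share untreated cells and agents, and no test was made of them. The 18 groups include both siPKC groups, where Prkca averaged 7.75 TPM untreated and stood at 6.72 TPM with AP20187. The part of these groups in the r values of Prkca was not tested.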

How the data were processed

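RNA was measured in 59 libraries of 4 cell lines. The authors deposited TPM, transcript abundance scaled by length and library, for each gene of a mouse and of a human sheet, normalized separately. The submitters' processing notes name Salmon and the builds hg19 and mm10. The Salmon version and its index are not stated in those notes. TPM keep no read depth, so no counting error could be given, and no count test was run. Libraries were grouped by their labels, and the NT and noDig sets of untreated parental cells were kept apart.

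Values were taken as log2(TPM + 1), with a pseudocount of 1, so fold changes of low genes are understated. Genes with at least 1 TPM in at least 2 libraries of a comparison were kept. Moderated linear models with a mean-variance trend were fitted with limma 3.58.1 (R 4.3.3, with data.table, version 1.17.8), 1 model per mouse line over all its groups and 1 for both human lines, and p-values were adjusted by the Benjamini-Hochberg method over all genes of a comparison, with a threshold of 0.05. Of 27 comparisons, 15 set treated against untreated cells, 6 set arms or lines side by side and 6 tested interactions. The fit was tested on simulated data, and of genes changed 1.5-fold it recovered 97.0% in the simulation of AP20187 after siCTR (11505 genes), 89.6% in that of digitonin in LLC (10988 genes) and 83.6% in that of digitonin in BxPC3 (12969 genes). False calls numbered 7, 7 and 12. Few genes were changed in these simulations and the others were not shifted, unlike in the data. Smaller changes, such as many of the members', were not simulated. Figures and sequence searches used Python 3.11.15, numpy 2.4.6 and matplotlib 3.10.9.

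All 9 members are named. Of the wider pathway, up to 2 genes per role and comparison were eligible, by the smallest p past the threshold. Genes most like a member were sought for the 3 members past the threshold in most of the 13 mouse treatment comparisons, as the 3 genes of highest Pearson r among those with a mean of at least 5 TPM. Mapkap1, the further partners of atypical PKC, the genes listed with Bcl10 and the counts over comparisons were described after their values were seen. An item of the pathway list is not reported here, and the list's counts leave it out. The members and lists were chosen with earlier results of these data known.

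Alternatives were a pseudocount of 0.1, no filter, quantile normalization, median centring, the libraries of a comparison alone, omitting each library in turn, and a replicate block. Other untreated sets for digitonin (members and pathway counts) and for the resting mouse lines, and the rescaled pathway counts, were chosen after seeing the data. Both LLC MLKL libraries with AP20187 carry the same replicate label, and one of them has the construct written differently in its title. Both were kept by their treatment label, and the number 1 of that library is only a name given here.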

Additional observations from a re-analysis of the deposited data

Results flagged for a closer look

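Responses that differed between arms or lines, by the limma test of the difference itself, are given here as differences of log2 fold changes with the adjusted p. The response of Prkd1 to AP20187 in calcium-free medium, less that in complete medium, was −0.29 (SE 0.072, adjusted p = 0.00595). After siPKC, less after siCTR, the responses to AP20187 differed by −0.20 for Prkca (adjusted p = 0.0453) and 0.25 for Prkci (adjusted p = 0.0471), with 1 library of siPKC with AP20187. Both calls were lost with a replicate block (adjusted p = 0.0574 for Prkca and 0.0604 for Prkci) and with the libraries of the comparison alone (0.428 and 0.274). Median centring lost Prkci (adjusted p = 0.119) and quantile normalization lost Prkca (0.415).

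In LLC GSDMD cells, less parental LLC cells, the responses to 4OHT differed by −0.44 for Prkci, −0.51 for Prkd2 and 0.25 for Prkd3 (adjusted p = 2.06e-05, 0.00544 and 0.00654). Prkd2 was lost with quantile normalization (adjusted p = 0.234). In HT29, less BxPC3, the responses to digitonin differed by −0.48 for PRKCA, −0.19 for PRKCD, −0.36 for PRKCH and 0.30 for PRKCI (adjusted p = 0.00377, 0.0351, 0.0321 and 0.00815). The median difference of all genes was 0.23, and PRKCI stood at 0.056 with median centring (adjusted p = 0.481) and at 0.028 with quantile normalization (0.720). PRKCD and PRKCH lost their calls when any of several single libraries was left out.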

How the results depend on the processing

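Of 74 calls of members, 74 kept direction and side with a pseudocount of 0.1, 70 without the filter, 56 with quantile normalization and 56 with median centring. The 74 include Prkd1 at rest in the mouse lines, which met the filter only through NIH3T3 and is given above as a description with no test. Directions turned for Prkce (−0.15) and Prkci (−0.16) with digitonin against parental NT libraries of NIH3T3, and for Prkce at rest with noDig libraries alone (−0.33). With quantile normalization they turned for Prkca with AP20187 after siPKC (0.034), in noko (0.042) and in p65ko cells (0.027), Prkce in LLC GSDMD cells (0.13) and PRKCD in HT29 (0.0024). With median centring they turned for Prkca in noko (0.10) and p65ko cells (0.040) and for PRKCD in HT29 (0.038).

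Counts of members past the threshold moved by over 1.5 times as follows. For AP20187 in NIH3T3 MLKL cells the count was 0 without the filter, with median centring and with the libraries of the comparison alone. With quantile normalization it was 2 in calcium-free medium, 6 after siCTR (6 with centring too), 4 in p65ko cells, 3 for digitonin in LLC, 1 for calcium withdrawal and 2 for the difference in response between the media. With median centring it was 1 after siPKC and 2 for digitonin in LLC, where NT libraries gave 5. With the libraries of the comparison alone it was 1 for AP20187 after siPKC, 3 for LLC GSDMD and 2 for siPKC against siCTR with AP20187. The difference in response between siPKC and siCTR gave 1 without the filter and with either scaling, and 0 with the libraries alone. Without the filter 1 member, Prkch, passed for the difference between p65ko and noko. The cause was not tested.

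Leaving out 1 library gave 0 to 1 members for AP20187 in NIH3T3 MLKL cells (0 without NT replicate 1, NT replicate 2 or AP20187 replicate 2), 4 to 7 for digitonin in NIH3T3 (7 without noDig replicate 2) and 0 to 1 for AP20187 in LLC (0 without NT replicate 1, NT replicate 2 or AP20187 replicate 1, so numbered here). It gave 3 to 5 for LLC GSDMD (3 without NT replicate 2), 1 to 2 for digitonin in LLC (2 without noDig replicate 2) and 2 to 4 in HT29 (2 without digitonin replicate 2). It gave 2 to 4 for siPKC against siCTR with AP20187 (2 without siCTR replicate 1), 2 to 3 for untreated p65ko against noko (2 without p65ko replicate 2), 1 to 1 for the siPKC difference in response (6 libraries left out in turn) and 2 to 4 for that between HT29 and BxPC3 (2 without HT29 digitonin replicate 1 or any BxPC3 library).

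Same-numbered replicates deviated together by r = −0.081 to 0.176 over 18 comparisons, 3 of them over 0.1, so the numbers were not taken to pair samples. With the replicate block 70 of the 74 calls stayed and 4 were lost (Prkce in LLC GSDMD cells, PRKCD in HT29, and Prkca and Prkci in the siPKC difference in response), Prkd2 at rest in the mouse lines passed, and the count moved by over 1.5 times for the siPKC difference in response, to 0. Groups of 2 libraries limit the precision throughout.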

Other observations

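Prkcb, a conventional isoform that is not among the 9 genes, split the LLC libraries by set rather than by treatment. It stood at 0.686 and 0.526 TPM in parental LLC libraries with 4OHT and at 0.545 and 0.575 TPM in parental NT libraries. It stood at 6.91 and 6.71 TPM with digitonin and at 7.88 and 6.88 TPM in noDig libraries, which are parental LLC cells too. Untreated LLC cells with the MLKL construct held 5.29 and 6.44 TPM and those with the GSDMD construct 3.67 and 2.60 TPM. The cause was not tested.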
